A study of Sorghum bicolor with 14 samples.

Results

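Among the genes of the sweet sorghum stem internode, 150 were chosen for being level over the first drying step and higher once the soil was almost dry. They were taken from 31496 genes that have an entry of their own in the authors' drought table. The value used is L, the log2 of FPKM + 1, where FPKM are fragments scaled to transcript length and library size. A gene was a candidate if its 3 drought values were above 0 and its L differed by less than 0.5 between the mild and the middle drought group. Of 17259 candidates, the members are the 150 with the highest score, which is L in the severe group minus the higher L of the other two. The members were thus chosen by the 3 drought values, and every drought value below is a description.

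The study sampled the middle internode of Sorghum bicolor variety ICSV12012, a sweet sorghum grown for the sugar in its stem, in 14 libraries of 7 groups of 2. D1, D2 and D3 are potted plants, 1 per pot, from which water was withheld from the flag leaf stage on. They were harvested at booting, with the head still enclosed in the leaf sheath, once the meter read about 13% soil moisture for D1, 7% for D2 and 2% for D3. The other 4 groups are watered plants of a fertilized soil bed taken when flowers formed (floral initiation), at booting, and during grain filling at the milky stage and at soft dough. No watered plants in pots are among the groups, so effects of the pot and of drought cannot be told apart wherever a drought group is set against booting. The authors give 1 FPKM value per gene and group. The spread between the 2 libraries of a group is thus unknown, none of the differences could be tested, and they come without an error. The labels do not say whether the 2 libraries came from different plants, and sequencing depth is unknown as well. The files pair the genes with identifiers only, and 0 of the 150 were matched to a product name in the table at hand. What each gene does, and whether markers of other tissues moved with them, was therefore not examined.

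The stem internode of a grass carries water and sugar through its vascular bundles and, in sweet sorghum, stores sucrose in the parenchyma between them. When soil dries, roots and leaves make abscisic acid, a hormone that closes stomata and switches on genes through transcription factors binding their promoters. Some drought genes in plants respond to the first loss of water and others only when tissue water falls far, such as many of those whose products protect proteins and membranes in drying cells. Booting is a stage at which cereals are sensitive to lack of water while the head grows inside the leaf sheath.

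In the drought groups the members had a median of 1.79 FPKM in D1, 1.66 in D2 and 10.6 in D3. Their D1 values ran between 0.0163 and 304 FPKM, their D2 values between 0.0123 and 307, and their D3 values between 1.96 and 828. In tissue RNA, more RNA per cell and more cells of a type that makes it cannot be told apart. The set spans genes that were almost silent in D1 and D2 and genes that were already abundant there. D3 stood between 2.66 and 191 times above the higher of the other two groups in FPKM, with a median of 5.36. The score ran between 1.40 and 4.91 on the log2 scale with a median of 1.76, and 1 member scored at least 4, 8 at least 3 and 49 at least 2. Of all candidates, 2.37% were at least 1 higher in D3 than in D2 and 2.58% at least 1 higher in D3 than in D1, while all members were, as the rule requires. D2 lay above D1 for 80 members and below it for 70.

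**Figure D1:**
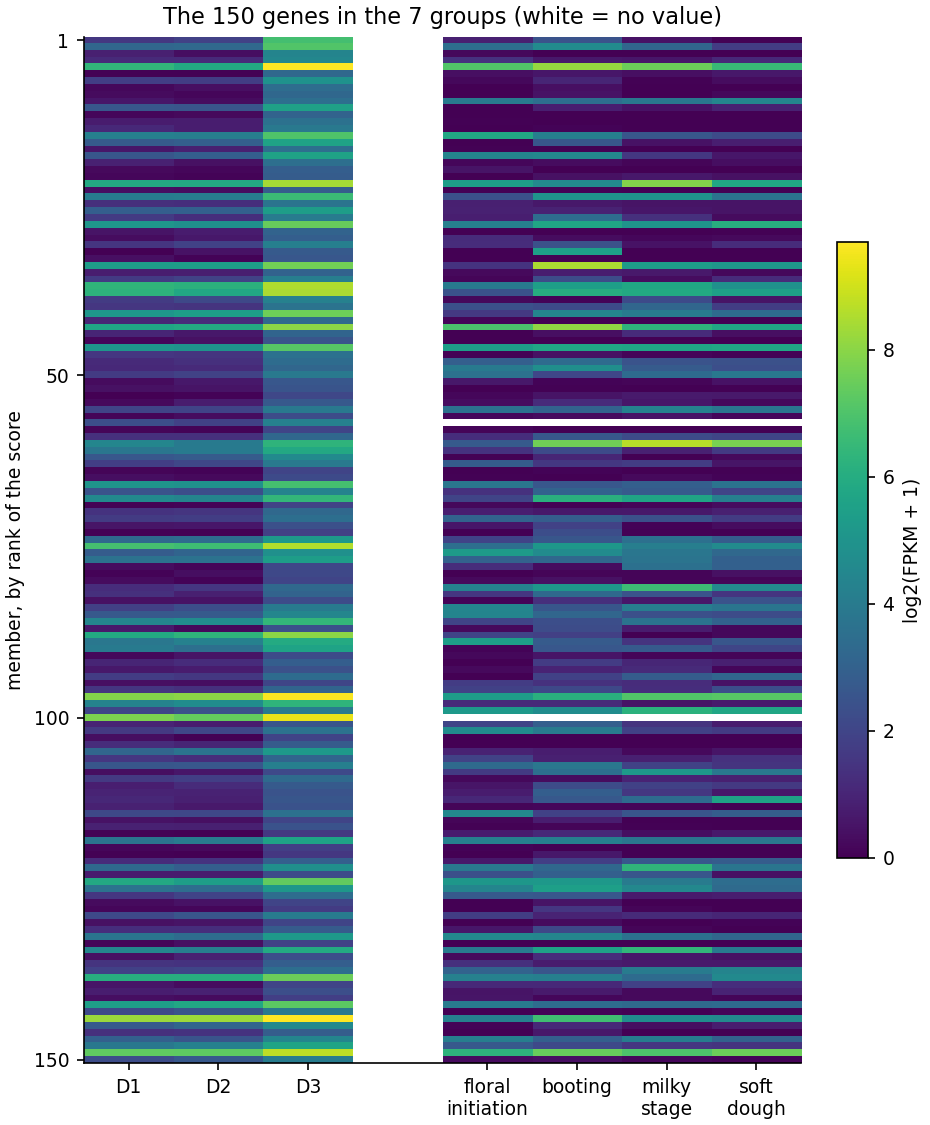
Each row is 1 of the 150 genes, ordered by score with the highest at the top, and each column is 1 group, with the 3 drought groups at the left and the 4 stages at the right. Colour gives log2(FPKM + 1). The D3 column is brighter than D1 and D2 in every row because the rows were chosen for it, while the stage columns, which the choice did not use, are dark for many rows and bright for others. The 2 white rows have no stage value of their own.

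The highest score belongs to Sobic.007G137700 (chromosome 7, 56571472 to 56573346 as the file gives it). It stood at 1.97 FPKM in D1, 2.71 in D2 and 110 in D3, a score of 4.91. In the soil bed it was at 0.782 FPKM at floral initiation, 4.65 at booting, 0.394 at the milky stage and 0.0523 at soft dough. Its level in D3 was therefore well above all other groups, and booting was its highest stage. The second, Sobic.007G074000 (chromosome 7, 8422521 to 8423441), was at 8.14, 8.73 and 133 FPKM in D1, D2 and D3. Over the stages it had 10.7 FPKM at floral initiation, 24.6 at booting, 8.19 at the milky stage and 2.27 at soft dough. Both genes were thus lowest at soft dough and highest in D3.

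Sobic.009G036100 (chromosome 9, 3308617 to 3309109) was the most abundant of the 12 highest scores. Its FPKM were 82.3 in D1, 58.9 in D2 and 807 in D3, and 132 at floral initiation, 287 at booting, 183 at the milky stage and 92.2 at soft dough. This gene was active in every group, and D1 and D2 lay below each of the 4 stages. In contrast, Sobic.001G066900 (chromosome 1, 5072700 to 5076586) was at 0.124, 0.185 and 7.47 FPKM in D1, D2 and D3 and is listed at 0 in all 4 stages. Sobic.004G045500 (chromosome 4, 3737943 to 3740721) had the widest FPKM ratio of all members, 191, with 0.0460 FPKM in D1, 0.0432 in D2 and 8.78 in D3. Its stage values lay between 0.325 and 0.544 FPKM, so D3 was the one group in which it passed 1 FPKM. The offset of 1 in the score keeps ratios over such low values from leading the order.

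The other 7 of the 12 highest scores reached between 8.35 and 45.5 FPKM in D3. Sobic.001G359700 stood at 0.828 FPKM in D1, 0.300 in D2 and 19.8 in D3, Sobic.009G198600 at 1.23, 1.21 and 21.3, and Sobic.010G133700 at 2.52, 2.39 and 29.5. Sobic.001G200700 was at 0.148, 0.332 and 10.1 FPKM, Sobic.001G515700 at 0.211, 0.121 and 8.35, and Sobic.002G260600 at 5.20, 4.82 and 45.5. None of these 6 passed 2 FPKM in any stage, the highest being 1.62 FPKM for Sobic.009G198600 at floral initiation. Sobic.008G038801 was different. It had 0.504, 0.236 and 10.6 FPKM in D1, D2 and D3, against 14.5 at floral initiation, 10.8 at booting, 13.8 at the milky stage and 20.9 at soft dough. For this gene D3 was at the level of watered booting plants and D1 and D2 lay far below it.

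**Figure D2:**
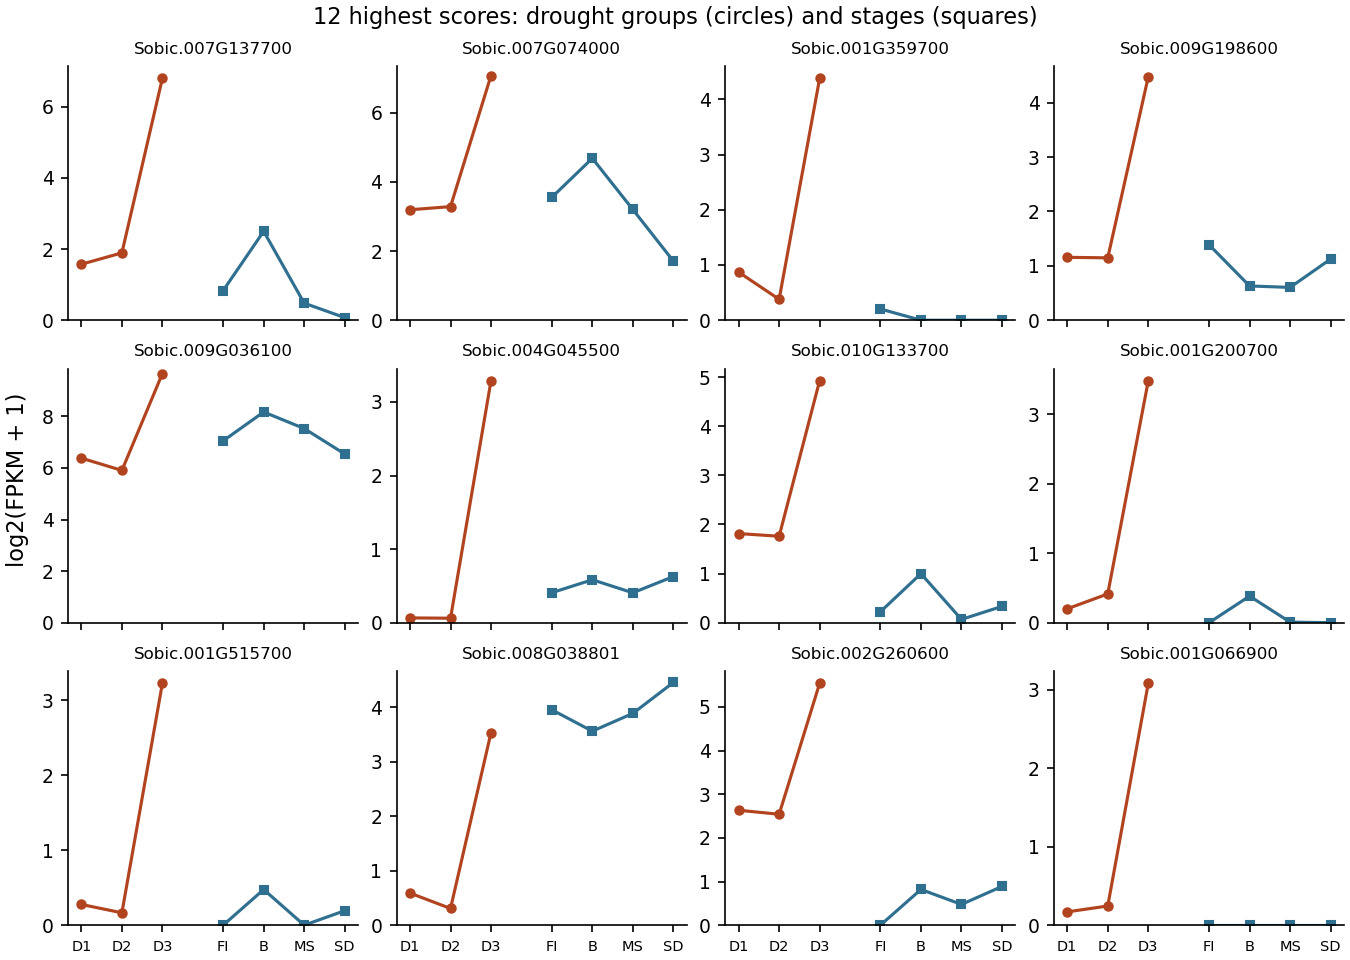
Each panel is 1 of the 12 genes with the highest score, with log2(FPKM + 1) on the vertical axis, which starts at 0 and has its own scale in each panel. Circles are D1, D2 and D3, and squares are floral initiation (FI), booting (B), milky stage (MS) and soft dough (SD). D3 exceeds all 4 stages in 11 of the panels, and in the panel of Sobic.008G038801 it is at the level of booting, 10.6 against 10.8 FPKM.

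At the end of the list the values change little from rank to rank. The last 3 members are Sobic.004G232400 (score 1.41, with 13.6, 18.0 and 49.6 FPKM in D1, D2 and D3), Sobic.004G177700 (1.41, with 159, 155 and 422 FPKM) and Sobic.008G122800 (1.40, with 3.83, 5.43 and 16.0 FPKM). The first 3 genes left out are Sobic.009G250100 (1.39, with 0.648, 0.586 and 3.32 FPKM), Sobic.003G079300 (1.39, with 0.580, 0.490 and 3.13 FPKM) and Sobic.009G107600 (1.38, with 0.438, 0.395 and 2.75 FPKM). In all, 322 candidates had a score of at least 1, so the limit of 150 lies in a continuous series of scores and not at a gap.

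The members fall into 3 classes by their level before the last drying step. A first class of 57 genes was under 1 FPKM in both D1 and D2 and reached between 1.96 and 19.8 FPKM in D3, with a median of 4.18. A second class of 58 genes had between 1 and 10 FPKM at the higher of D1 and D2, and 5.09 to 133 FPKM in D3 (median 14.1). The third class, 35 genes of at least 10 FPKM, had 34.1 to 828 FPKM in D3 (median 145). The median score was close to the same in the 3 classes, at 1.78, 1.76 and 1.71 on the log2 scale. Members score at least 1.40 by the choice, so this likeness follows in part from it. With the offset of 1, a like score is a wider FPKM ratio in genes of low level. Of all candidates 29.2% fall in the first class, 28.9% in the second and 41.9% in the third.

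The 5 members with the highest level in D3 include some with low scores. Sobic.003G087200 was at 304 FPKM in D1, 307 in D2 and 828 in D3, against stage values of 17.5 FPKM at floral initiation, 103 at booting, 25.5 at the milky stage and 22.9 at soft dough. D1 and D2 were thus above every stage and D3 was higher again. Sobic.003G019200 showed a similar order, at 237, 254 and 784 FPKM in D1, D2 and D3 and between 40.0 (floral initiation) and 144 (soft dough) over the stages. Sobic.009G036100, given above, ranks between these in D3. Sobic.006G231332 was at 221, 167 and 663 FPKM, and Sobic.004G177700 at 159, 155 and 422. For Sobic.004G177700 the stages lay between 77.0 FPKM at floral initiation and 183 at soft dough, with 175 at booting, so D1 and D2 were within the range of the stages.

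The stage table, which the choice of members did not use, holds 148 of the 150 under their own name. Sobic.002G140300 and Sobic.006G231332 are joined there with other genes into 1 locus each and have no stage value of their own. Coordinates are the same in both tables for 107 of the 148. The stage medians of the members were 0.825 FPKM at floral initiation, 2.61 at booting, 0.913 at the milky stage and 0.746 at soft dough. The same medians over all candidates were 5.94, 5.19, 5.00 and 5.39 FPKM. In well-watered stems the members were thus low on the whole, with booting their highest stage by median, while all candidates together were nearly level.

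No stage reached 1 FPKM for 51 of the 148 members (34.5%), against 21.4% of all 16972 candidates with stage values. The order of these shares turned with an offset of 5 (16.3% of members against 20.8% of candidates) and with zeros allowed in the drought groups (33.8% against 50.3%). Among the 10713 candidates with at least 1.96 FPKM in D3, the lowest D3 of a member, the share was 1.23%. Members were chosen to be lower in D1 and D2 than in D3, which bears on their share. Of these 51 members, 37 belong to the class under 1 FPKM in D1 and D2, 13 to the middle class and 1 to the abundant class. The same split was not made for candidates. Sobic.002G260600 had the highest D3 value among them, 45.5 FPKM, with at most 0.849 FPKM in any stage. Next came Sobic.003G272600, at 6.48, 6.80 and 41.0 FPKM in D1, D2 and D3 and at most 0.894 in any stage. The single member of the abundant class is Sobic.002G201300, at 8.21, 11.8 and 36.8 FPKM in D1, D2 and D3 and 0.186 to 0.910 over the stages. These 3 genes were already above their stage values in mild drought. A value of exactly 0 can be a failed estimate, and 36 members (24.3%, against 7.97% of candidates) are listed at 0 in at least 1 stage and 2 in all 4 (1.35%, against 0.695%).

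Among the 97 members that reached 1 FPKM in some stage, booting was the highest stage for 42 (43.3%), floral initiation for 23 (23.7%), the milky stage for 19 (19.6%) and soft dough for 13 (13.4%). Over all candidates these shares were 21.3% for booting, 29.7% for floral initiation, 27.3% for the milky stage and 21.8% for soft dough. Booting is also the stage at which the drought plants were harvested. It was the highest stage for 38.0% to 45.5% of members in the list and its variants, except 35.4% when the list was doubled to 300 genes, and for 18.0% to 23.3% of candidates. With 1 value per group these shares have no test, and no statement on chance can be made.

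**Figure D3:**
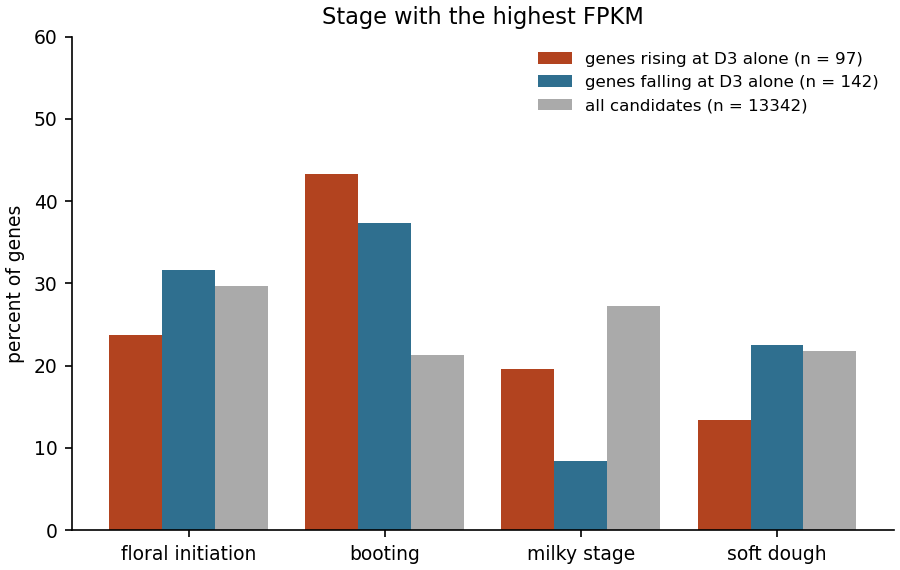
Bars give the percent of genes whose highest stage value fell in each of the 4 stages, for the members, for the 150 genes chosen in the mirrored way as lower in D3 alone, and for all candidates, counting genes that reached 1 FPKM in some stage. Booting is the tallest bar for both drought lists, 43.3% of members and 37.3% of the mirrored list, and the shortest for all candidates, 21.3%.

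Step by step over the stages, 39 of the 148 members (26.4%) were at least 1 higher in L at booting than at floral initiation and 10 (6.76%) at least 1 lower, against 11.1% and 9.23% of candidates. The share of lower genes passed that of candidates in 7 of 12 other settings, for example with an offset of 0.1 (17.3% against 14.6%). At the milky stage 15 members (10.1%) were at least 1 higher than at booting and 28 (18.9%) at least 1 lower, against 6.63% and 9.76% of candidates. Quantile normalization made this 15.3% higher and 18.0% lower, against 8.13% of candidates in either direction. Soft dough had 12 members (8.11%) at least 1 above booting and 38 (25.7%) at least 1 below, against 5.67% and 7.93% of candidates. Soft dough against floral initiation was nearly even, with 21 members (14.2%) higher and 23 (15.5%) lower, against 9.46% and 10.7%. The median difference of the members was 0.18 for booting minus floral initiation, -0.17 for the milky stage minus booting and -0.25 for soft dough minus booting, while all candidates had medians of 0.00. By these counts the members were more often up at booting than candidates in general. After booting they were more often changed than candidates in both directions, and more of them were down than up.

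Named cases show how different the stage courses were. Examples here and below that are not among the highest scores, the highest D3 values or the list's limit were picked after their values were seen. Sobic.003G356500 (chromosome 3, 67487979 to 67492096) had 1.68 FPKM at floral initiation, 354 at booting, 40.6 at the milky stage and 33.5 at soft dough. In the pots it was at 40.4, 41.2 and 199 FPKM in D1, D2 and D3, so the 2 moister groups resembled the stages after booting. Sobic.001G523200 peaked at the milky stage, with 42.0, 22.3, 235 and 54.4 FPKM over the stages, and had 58.3, 56.1 and 333 FPKM in D1, D2 and D3. Sobic.001G496800 was highest at floral initiation, with 55.3, 17.1, 4.96 and 3.68 FPKM over the stages and 17.8, 16.8 and 128 FPKM over the drought groups. Sobic.009G255500 was highest at soft dough, with 17.6, 50.6, 31.6 and 66.7 FPKM over the stages and 32.9, 28.5 and 175 FPKM over the drought groups. In Sobic.001G523200, Sobic.001G496800 and Sobic.009G255500 D3 was above the highest stage.

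Set against watered booting plants, the members were on both sides before severe drought. In D1 27 members (18.2%) were at least 1 above booting and 35 (23.6%) at least 1 below, against 9.02% and 8.70% of candidates, and the median difference was -0.02. With a minimum of 5 FPKM in a drought group the order turned, with 23.1% above and 20.4% below, against 14.7% and 8.71% of candidates. D2 gave nearly the same counts, 27 above (18.2%) and 36 below (24.3%), against 9.28% and 8.40%. In D3 109 members (73.6%) were at least 1 above booting and 5 (3.38%) at least 1 below, against 11.6% and 9.50%, with a median difference of 1.88. The members were picked for high D3 and for lower D1 and D2, so these shares follow in part from the choice and are given as a description. The stages and the drought groups come from separate tables, and how far that moves these differences was not tested.

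Joining D1 and D3 gives 5 courses relative to booting. By the choice, every member rose by at least 1.40 in L between D1 and D3. The shares of the courses therefore follow in part from the choice and are given as a description. The most frequent, 79 of 148 members (53.4%, against 4.64% of candidates), was within 1 of booting in D1 and at least 1 above it in D3. Sobic.007G137700 is an example, at 1.97 FPKM in D1 and 110 in D3, against 4.65 at booting. A second course, 27 members (18.2%, against 6.99%), was at least 1 above booting in D1 already and higher again in D3. Sobic.002G113300 had the widest difference there, at 57.6, 77.9 and 255 FPKM in D1, D2 and D3, against 2.56 at booting, and Sobic.001G465900 stood at 19.1, 25.1 and 78.9 FPKM, against 1.21 at booting. For such genes "only at severe drought" holds within the drying series and not against the watered plants of the soil bed.

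The third course ran the other way. In 30 members (20.3%, against 1.91% of candidates) D1 was at least 1 below booting and D3 was back within 1 of booting or above it. Sobic.003G021500 shows it, at 51.2, 58.1 and 254 FPKM in D1, D2 and D3, against 272 at booting. Sobic.001G533900 was at 1.20, 1.54 and 9.71 FPKM, against 9.67 at booting, and Sobic.003G356500 and Sobic.008G038801, given above, belong here too. In these genes the value in D3 was within 1 of watered booting plants or above them, and the pots with moister soil were lower than booting. Other stages could lie well above D3, as in Sobic.001G291600, with 5.09 FPKM in D3 and 47.3 at soft dough. The rise of at least 1.40 that the choice sets leaves members little room to stay within 1 of booting in both D1 and D3. A further 7 members (4.73%, against 74.9%) were within 1 of booting in both groups, and 5 (3.38%, against 6.79%) were at least 1 below it in both.

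These 5 are Sobic.005G140001, Sobic.003G104500, Sobic.006G230800, Sobic.007G195800 and Sobic.008G075400. Sobic.006G230800 had 20.7, 14.9 and 78.4 FPKM in D1, D2 and D3, against 190 at booting, and 397 at the milky stage. Sobic.007G195800 had 1.35, 1.93 and 8.75 FPKM, against 34.5 at booting, and 98.1 at the milky stage. Sobic.005G140001 had 0.0163, 0.402 and 5.75 FPKM, against 43.7 at booting, and is listed at 0 in the other 3 stages. All of these stayed low in drought relative to booting although they were higher in D3 than in D1 and D2.

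**Figure D4:**
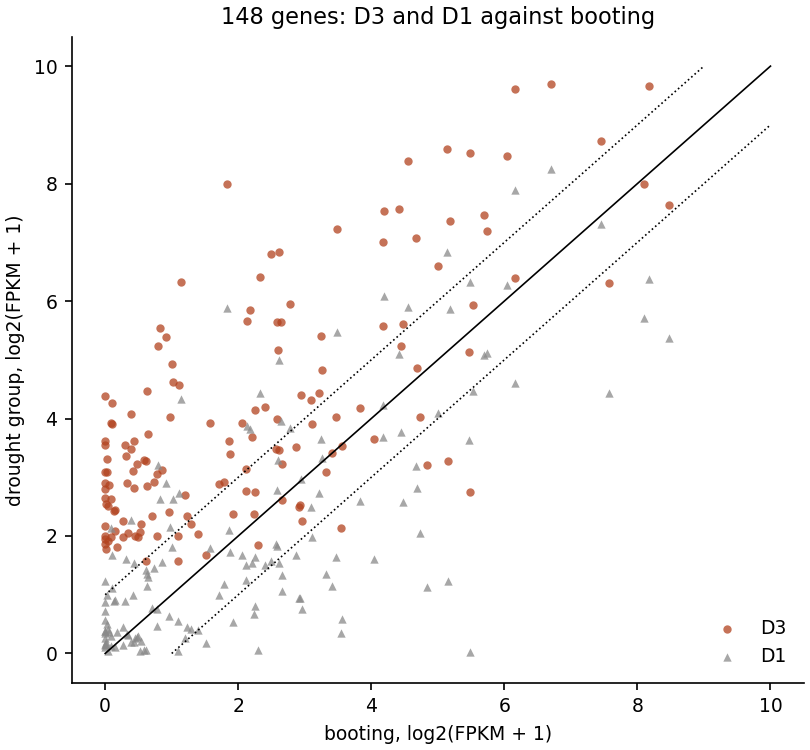
Each of the 148 genes has 2 points, its D3 level (circles) and its D1 level (triangles) on the vertical axis, set against its level at booting on the horizontal axis, all as log2(FPKM + 1). The solid line marks equal levels and the dotted lines a difference of 1. In D3 109 genes lie above the upper dotted line and 5 below the lower one, and in D1 27 lie above and 35 below.

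D3 was at least 1 above every stage for 96 of 148 members (64.9%, against 4.71% of candidates), and at least 1 below the highest stage for 10 (6.76%, against 22.6%). For the other 42 members it was within 1 of the highest stage. A level close to that in D3, or above it, was thus also seen in watered plants for 52 members. Among the 10713 candidates with at least 1.96 FPKM in D3, the lowest D3 of a member, 7.13% were at least 1 above every stage. The members were picked for high D3, so their shares here follow in part from the choice. By class, D3 was at least 1 above every stage for 41 of the 57 genes that were under 1 FPKM in D1 and D2, for 30 of 57 in the middle class and for 25 of 34 in the abundant class. Candidates were not counted by class, so these counts are a description of the members alone. The widest excess of a stage over D3 was that of Sobic.007G195800, followed by Sobic.008G075400, which had 3.42 FPKM in D3 and 36.2 at the milky stage. Sobic.001G291600 had 5.09 FPKM in D3 and 47.3 at soft dough.

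The 150 genes of the mirrored list, level between D1 and D2 and lower in D3, allow a comparison on the stage values. Of the 145 with stage values, 3 (2.07%) stayed under 1 FPKM in every stage, against 34.5% of the members. Members of the rising list must be low in D1 and D2 relative to D3, and those of the falling list high, so part of this gap follows from the choice. Both lists had booting as the most frequent highest stage, 43.3% of the rising and 37.3% of the falling genes. Both had more genes at least 1 below booting at soft dough than above it, 25.7% against 8.11% in the rising list and 29.0% against 14.5% in the falling list. At the milky stage 18.9% of the rising and 43.4% of the falling genes were at least 1 below booting. Whether the lists differ in these shares could not be tested.

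The members lie on all 10 chromosomes. Chromosome 1 holds 32 of them (21.3%, against 18.1% of candidates), chromosome 3 holds 20 (13.3% against 14.8%) and chromosome 2 holds 17 (11.3% against 13.1%). Chromosome 4, with 24 genes, has 16.0% of members and 11.4% of candidates, and chromosome 8 has 8.67% and 5.50%. Chromosomes 5 and 6 have 2.00% and 3.33% of members, against 4.95% and 8.75% of candidates. Members were shorter loci than candidates, with a median span of 2783 bases against 4224, and 3630.5 in the mirrored list. The spans ran between 198 and 190464 bases, the longest being that of Sobic.002G143300.

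Some members lie next to each other. Within 5 positions in the order of loci on a chromosome there are 10 pairs made of 17 genes, and 4 of these pairs are direct neighbours. The mirrored list has 3 such pairs, of which 1 is direct. Pairs were not counted over all candidates, so these numbers are a description. Sobic.007G143100 and Sobic.007G143200 are direct neighbours, 4358 bases apart. The first was at 23.3, 19.8 and 83.5 FPKM in D1, D2 and D3, and the second at 33.3, 42.0 and 188. Over the stages both had their highest value at booting, 70.4 and 20.3 FPKM, and their lowest at floral initiation, 2.92 and 2.06 FPKM, so this pair had like courses there. The rise of both in D3 was set by the choice, and between D1 and D2 the first was lower and the second higher.

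Sobic.009G208400 and Sobic.009G208500 are 553 bases apart. They stood at 0.206, 0.0675 and 3.02 FPKM and at 0.857, 0.349 and 10.8 FPKM in D1, D2 and D3, and neither passed 0.358 FPKM in a stage. On chromosome 8, Sobic.008G135100, Sobic.008G135500 and Sobic.008G135600 lie within 5 positions of each other. Their D3 values were 48.9, 2.98 and 4.08 FPKM, against D1 values of 14.5, 0.363 and 0.363. Over the stages some other pairs were alike and some differed. Sobic.001G496500 and Sobic.001G496800 both fell step by step between floral initiation (19.6 and 55.3 FPKM) and soft dough (3.72 and 3.68 FPKM). Sobic.001G465900 was at 78.9 FPKM in D3 and its neighbour Sobic.001G466000, which lies 8777 bases on, at 7.62, and their highest stages were booting and the milky stage. Neighbours of this kind can be close copies that share fragments, which FPKM alone cannot resolve.

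Across the 148 genes, the level in D1 ranked with the level at booting with a Spearman rho of 0.696, and the level in D3 with a rho of 0.626. Over all candidates the same values were 0.932 and 0.915. These are correlations across genes of the same groups, which share libraries and transcript length. In the mirrored list, chosen on the same groups for the opposite course, they were 0.633 and 0.650. D1 and D3 chose both lists, so a rho below that of all candidates follows in part from the choice.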

How the data were processed

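The authors' values are FPKM, per the file headers, with 1 value per locus and group in 2 tables, 1 for the stages and 1 for drought. The submitters' processing notes name Bowtie2 2.2.9, HISAT2 2.0.5, cutadapt 1.8.1 and Cuffdiff, with no roles. The version of Cuffdiff, the genome build, the annotation and the way 2 libraries became 1 value are not given in the sources used here. Total RNA was isolated by a modified trizol method and libraries came from a stranded kit, per the labels' protocols. The file does not say whether starts count from 0 or 1. All 7 value columns are group values, and 0 other columns exist. Of 32726 drought entries, 21 repeats were used once.

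Scripts in Python 3.11.15 with pandas 2.3.3, numpy 2.4.6 and scipy 1.17.1 applied the rule and read the same names in the stage table. A difference is that of log2(FPKM + 1), which understates changes of low genes, and a gene is counted where it is at least 1. No test was possible with 1 value per group. Members, lists and comparisons were chosen with earlier results of these data known. Genes to be named were the 12 highest scores and the 3 on each side of the limit, and others were added after their values were seen. Gene lists by product name, markers of other tissues, proteins and promoter motifs had been planned and were not analysed here, because the reference table gave no product names or sequences. The rule's script was tested on simulated data.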

Additional observations from a re-analysis of the deposited data

How the results depend on the processing

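No paired analysis was possible because each group has a single value in the file, and for the same reason no library could be left out. The list and its counts were recomputed under 12 settings, of which 3 were chosen after seeing the data, and 146 of 167 values stayed within 1.5 times of the reported one. Part of this count was fixed in advance. Lists of 100 and 300 genes come from the same ranking, so their overlaps with the members were certain. An overlap of 107 of the 150 also counts as within 1.5 times, and shares that use D3 follow in part from the choice. Of the 150 members, 85 were chosen again with an offset of 0.1 and 86 with an offset of 5, 97 with a minimum of 1 FPKM in a drought group and a stage, and 93 with D1 and D2 within 0.25. Median-of-ratios scaling kept 148 and quantile normalization 138. The minimum of 1 FPKM left only the 97 members that reached 1 FPKM in a stage, and all of them were chosen again. Both scalings were run on genes with stage values, which 148 members have, so 148 was the most they could keep. The cause of the other changes was not tested.

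With an offset of 0.1, D3 lay below booting for 5.33% of members (candidates 14.1%) and soft dough above booting for 14.7% (candidates 9.965%). The milky stage lay above booting for 17.3% (candidates 10.9%) and below it for 28.7% (candidates 15.5%). Booting lay below floral initiation for 17.3% (candidates 14.6%). An offset of 5 gave 2.72% for soft dough above booting (candidates 2.02%) and 5.44% for the milky stage above it (candidates 3.26%). It gave 16.3% for genes under 1 FPKM in every stage (candidates 20.8%). The minimum of 1 FPKM gave 12.7% for soft dough above booting (candidates 7.42%) and 13.3% for booting below floral initiation (candidates 10.5%). For the milky stage it gave 16.7% above booting (candidates 8.12%) and 28.7% below (candidates 12.5%). A minimum of 5 FPKM gave 11.6% for booting below floral initiation (candidates 8.84%) and 20.4% for genes under 1 FPKM in every stage (candidates 0.484%). Quantile normalization gave 15.3% for the milky stage above booting (candidates 8.13%), and 300 members gave 12.5% for booting below floral initiation (candidates 9.23%). Leaving out genes listed at 0 in a stage gave 16.7% for genes under 1 FPKM in every stage (candidates 15.35%). The minimum of 5 FPKM also put more members above booting in D1 (23.1%, candidates 14.7%) than below it (20.4%, candidates 8.71%). In each setting more members were below than above booting at soft dough, and booting was the highest stage for more members than candidates by percent. The depth is unknown, so how precisely low values are measured cannot be given.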

Other observations

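The rule leaves out genes listed at 0 in a drought group. Of these, 23 would have scored at least as high as the lowest member, 12 of them listed at 0 in both D1 and D2. Sobic.005G085500 was at 117 FPKM in D3 and 0.0245 in D2, and is listed at 0 in D1 as well as in every stage. Its locus spans 117724 bases. Sobic.006G061900 was at 0.105 FPKM in D1 and 31.0 in D3 and is listed at 0 in D2. It also had 14.5 FPKM at floral initiation, 89.1 at the milky stage and 54.4 at soft dough, and is listed at 0 at booting, between stages in which it was abundant. Sobic.009G021800 and Sobic.009G021900 have the same coordinates, are listed at 0 in D1 and D2 and were at 9.72 and 12.4 FPKM in D3. A value of 0 may be a failed estimate, so no fold is given.

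Loci that join several genes were left out as well, and 10 of them would have reached the score of the lowest member. The highest joins Sobic.006G078300 and Sobic.006G078400, with 33.6, 31.6 and 378 FPKM in D1, D2 and D3, a score of 3.45 that falls between the third and the fourth member. Which of the joined genes carries the difference cannot be told apart.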
